A study of Mus musculus with 15 samples.

Results

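5-hydroxymethylcytosine (5hmC) and unmodified CG (uCG) were compared across the genes of mouse embryonic stem cells (mESCs). The comparison used 5 of the 15 libraries of the study: 2 hmTOP-seq libraries made from 500 ng of DNA, which report 5hmC, and 3 uTOP-seq libraries made from 300 ng, which report uCGs. All libraries came from DNA of the mouse embryonic stem cell line E14TG2a, grown on gelatin with leukemia inhibitory factor (LIF) and fetal bovine serum, and the labels give no genetic or drug treatment. In hmTOP-seq, T4 β-glucosyltransferase (BGT) transfers an azide sugar to 5hmC, an oligonucleotide is tethered there and primes a read that starts at the modified CG. In uTOP-seq, a CG methyltransferase places the tether on CGs that carry no modification. Of the remaining libraries, 2 hmTOP-seq controls at 500 ng left out the BGT step, and the libraries at 50 ng served as an alternative for the 500-ng pair. The members were the 20722 protein-coding genes of the 19 autosomes in GENCODE M21 on mm10, each taken as a gene body and as a promoter from 1 kb upstream to 0.5 kb downstream of its transcription start site (TSS). The hmTOP-seq replicates are technical, and the labels do not name a separate culture for any uTOP-seq replicate, so that every p-value below measures only the spread between these libraries.

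5hmC arises when TET enzymes oxidize 5-methylcytosine, and it is an intermediate on the way back to unmodified cytosine. Methylated DNA is the usual state of most CGs in a mammalian genome, whereas CG-rich promoters of active and poised genes are kept free of methylation. In mESCs both TET activity and DNA methyltransferases are abundant, and 5hmC is found in gene bodies and at the edges of CG islands. A CG can be unmodified, methylated or hydroxymethylated, and neither assay reads the methylated state. Methylation of a gene is therefore not measured here.

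The unit used throughout is the rate, reads per 100 CGs per 1000000 library reads. The log2 ratio is the 5hmC rate over the uCG rate, so that values above 0 lean to 5hmC and values below 0 to uCG. Its SE is taken from the spread of log2 scaled counts between the libraries of each assay and does not come from edgeR. A gene body or promoter was called shifted when edgeR's quasi-likelihood test with Benjamini-Hochberg adjustment over all features of its kind gave an adjusted p under 0.05 and the ratio was at least 2-fold. Because both assays are scaled to their own totals, the ratio ranks genes against each other and does not give the share of molecules with either mark.

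The stretches just upstream of the start sites of 3 promoters that stand among the strongest shifts show a part of what the calls rest on. The calls were made on the whole promoter windows, which hold 27 CGs for Siah3, 31 for Col6a5 and 99 for Hnrnpa1. Siah3 lies at chr14:75455732-75455981 (plus strand), Col6a5 at chr9:105960644-105960893 (minus strand) and Hnrnpa1 at chr15:103240147-103240396 (plus strand). Each sequence is from RefSeq on GRCm38.p6, is given 5′ to 3′ on the strand of the gene, and has every CG in capitals.
Siah3: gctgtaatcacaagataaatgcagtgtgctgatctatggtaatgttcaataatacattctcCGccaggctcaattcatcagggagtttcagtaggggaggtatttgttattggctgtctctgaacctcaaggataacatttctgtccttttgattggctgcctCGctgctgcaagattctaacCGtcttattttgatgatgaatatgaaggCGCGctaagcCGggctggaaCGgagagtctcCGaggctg
Col6a5: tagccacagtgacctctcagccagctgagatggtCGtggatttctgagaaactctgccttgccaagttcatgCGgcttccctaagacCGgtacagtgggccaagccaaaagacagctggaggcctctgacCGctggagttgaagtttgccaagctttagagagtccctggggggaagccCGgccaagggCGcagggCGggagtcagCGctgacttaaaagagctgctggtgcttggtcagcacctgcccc
Hnrnpa1: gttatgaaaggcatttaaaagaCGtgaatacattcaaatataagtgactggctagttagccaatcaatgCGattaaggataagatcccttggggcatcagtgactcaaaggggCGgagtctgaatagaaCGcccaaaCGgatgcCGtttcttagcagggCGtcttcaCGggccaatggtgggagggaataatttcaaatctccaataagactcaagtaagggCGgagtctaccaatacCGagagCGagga
The 8 CGs of the Siah3 stretch held 29 and 33 5hmC reads against 6, 4 and 6 uCG reads. The 8 CGs of the Col6a5 stretch held 96 and 61 5hmC reads against 1, 2 and 3 uCG reads, and 1 CG alone accounted for 49 of the 5hmC reads. The 11 CGs of the Hnrnpa1 stretch held no 5hmC read in either library against 61, 36 and 36 uCG reads, and all 11 had a uCG read. The groups did not overlap in any of the 3 stretches, which lie in windows chosen for non-overlap. The first pair was on the side of 5hmC and Hnrnpa1 on the side of uCG.

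The 2 hmTOP-seq libraries held 32502791 and 31918445 reads, and the 3 uTOP-seq libraries 28412885, 23078739 and 20120568. The controls without BGT held 10072 and 9348 reads, so that few genes had a control read and the controls give a distribution rather than a level to subtract. Replicates correlated across gene bodies with Pearson r from 0.950 to 0.985 on the log2 scale and across promoters from 0.885 to 0.977, which is a description over genes that share each library. No replicate pair agreed to within counting error, since the mean chi-square per gene body lay between 2.17 and 2.75. Duplicates had been removed by start position and read length, as stated for hmTOP-seq, and without molecular identifiers. Counting error alone understates the error of a count.

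Gene bodies took a similar share of both marks, and promoters did not. Promoters took 3.001% and 2.96% of the 5hmC reads against 11.2%, 11.4% and 11.1% of the uCG reads. The means were 2.98% ± 0.0289 (SD, n = 2) and 11.2% ± 0.181 (SD, n = 3), a difference of -8.25 percentage points, and no library of one assay came near those of the other. Gene bodies took 58.5% ± 0.181 (SD, n = 2) of the 5hmC reads and 56.5% ± 0.0811 (SD, n = 3) of the uCG reads, which also did not overlap. The two-sided exact permutation test gave p = 0.2 for both shares, the smallest value that 2 against 3 libraries allow. Of the control reads, 4.61% and 4.24% lay in promoters.

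Among 18956 gene bodies with enough reads to test, 898 shifted to 5hmC (4.74% of those tested) and 4275 to uCG (22.6%), and 13783 had no call. The median log2 ratio was -0.21, and 90% of gene bodies lay between -2.54 and 0.98. Among 16845 promoters tested, 1364 shifted to 5hmC (8.1%) and 11710 to uCG (69.5%), and 3771 had no call. The median promoter log2 ratio was -2.68, with 90% between -7.30 and 1.31. The filter left out 1766 gene bodies and 3877 promoters, and 22.2% of the gene bodies and 14.1% of the promoters tested overlapped another gene's. The filter sums the reads of both assays, so that a feature could pass through reads of a single assay.

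The scaling sets where the line between both marks falls in promoters. With TMM normalization, which assumes that most promoters do not differ, the promoter median moved up by 2.34 to -0.34 and the calls split into 5686 to 5hmC and 6936 to uCG, so that 45.0% of calls leaned to 5hmC instead of 10.4%. DESeq2's size factors moved it by 2.51 and gave 47.8%. Gene bodies moved by 0.18 and 0.20, and the share of calls leaning to 5hmC went from 17.4% to 28.5% and 30.6%. Both alternatives rescale whole libraries, so that statements below on promoters are relative to library totals, and a promoter or list that would change side is named as such.

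**Figure D1:**
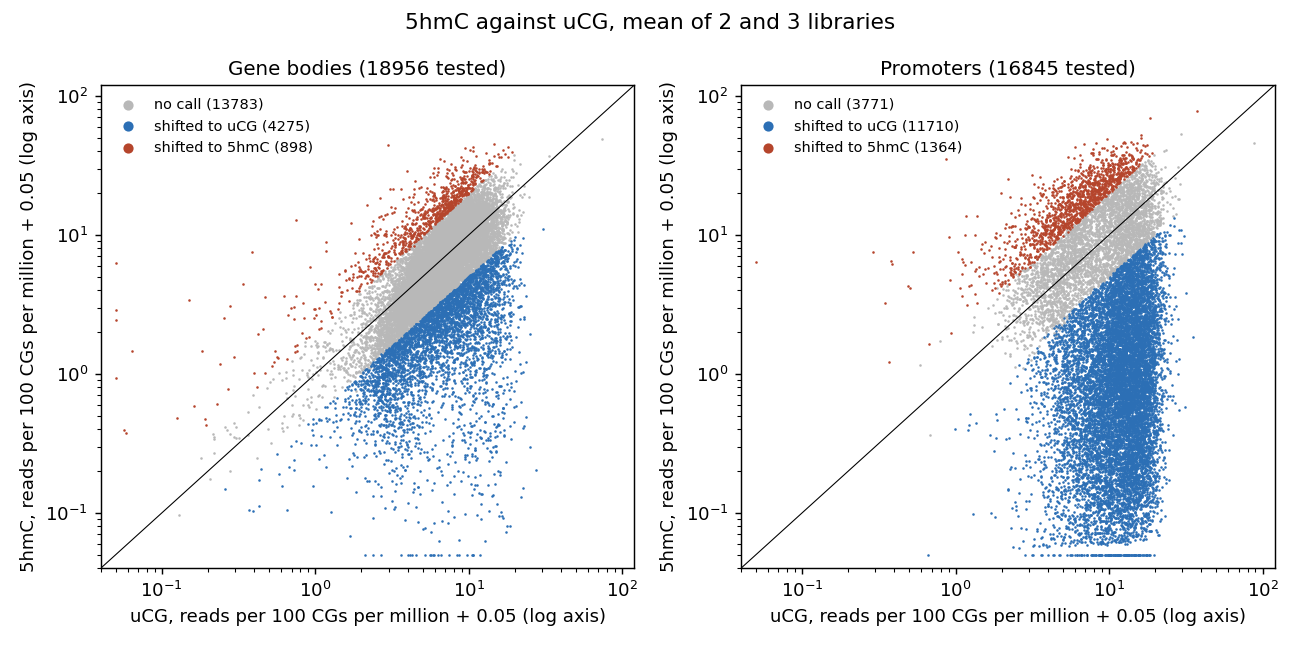
Mean 5hmC rate (vertical, log axis, 2 libraries) against mean uCG rate (horizontal, log axis, 3 libraries), both in reads per 100 CGs per 1000000 library reads with 0.05 added, for 18956 gene bodies (left) and 16845 promoters (right); the line marks equal rates. Gene bodies follow the line with 898 red points (shifted to 5hmC) and 4275 blue (shifted to uCG), whereas promoters form a band of high uCG over a wide range of 5hmC, with 1364 red and 11710 blue points.

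Across gene bodies both rates rose together: Pearson r of the log2 rates was 0.54 and Spearman rho 0.56 over 18956 gene bodies. In promoters r was -0.09 and rho -0.09 over 16845 promoters. These values describe genes that share libraries and base composition and carry no test. Within gene bodies of CG-poor promoters r was 0.73, and within those of CG-rich promoters 0.30. 1678 gene bodies (8.85% of those tested) lay in the top 20% of both rates and 2140 (11.3%) in the bottom 20% of both. In the top 20% of 5hmC and the bottom 20% of uCG were 56 (0.295%), and 447 (2.36%) were in the opposite corner.

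CG content of the promoter separated the promoters of both kinds. CG-rich promoters (observed over expected CG of at least 0.6 and GC share of at least 0.5 in the window) had 9 calls to 5hmC and 7288 to uCG among 7548 tested, with a median log2 ratio of -4.26. Promoters of intermediate CG content had 131 to 5hmC and 3602 to uCG among 4532, with a median of -2.73. CG-poor promoters (observed over expected under 0.4) had 1224 to 5hmC and 820 to uCG among 4765, with a median of 0.31. CG-poor promoters thus held 1224 of the 1364 calls to 5hmC. Of 8529 genes with CG-poor promoters, these 4765 had enough CGs and reads to test.

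Around the TSS of CG-rich promoters the 5hmC rate fell almost to 0. In the 100-bp bin centered at 50 bp downstream of the TSS, it was 0.251 and 0.240 in the 2 libraries against 8.19, 8.23 and 7.88 for uCG. The rates of both marks met again within the gene. At 4950 bp downstream, 5hmC was at 9.05 and 8.96 and uCG at 7.45, 7.33 and 7.49. At library totals the 5hmC rate was thus the higher of the 2 there. The uCG rate itself had 2 shoulders around the start, with 13.0, 13.5 and 12.9 at 550 bp upstream and 13.3, 13.9 and 13.3 at 850 bp downstream, above its value at the start. At intermediate promoters the 5hmC rate at 50 bp was 2.29 and 2.17 against 13.0, 13.3 and 12.8 for uCG. CG-poor promoters showed no dip in 5hmC: the rates at 50 bp were 11.9 and 11.8 for 5hmC and 10.1, 10.2 and 10.3 for uCG, and both marks were higher there than in the flanks. The control libraries gave 1.86 and 1.63 at the same bin of CG-rich promoters and 11.1 and 11.2 at CG-poor ones, from few reads, and the part of this background in the profile was not tested.

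**Figure D2:**
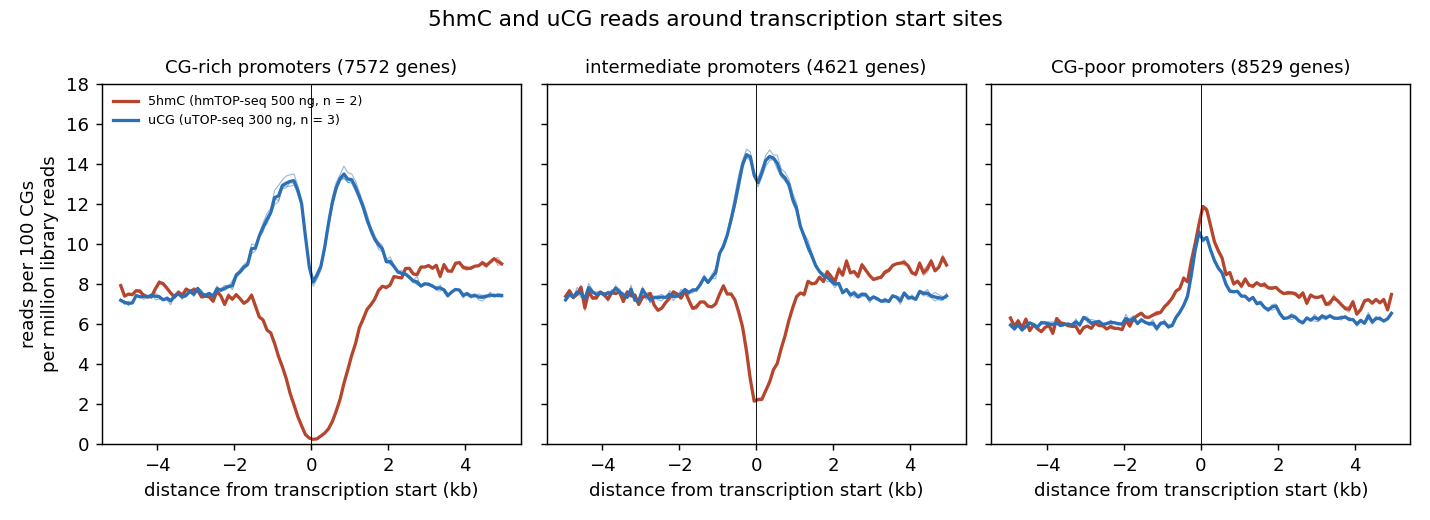
Reads per 100 CGs per 1000000 library reads (vertical) against distance from the transcription start (horizontal, kb, 100-bp bins), for genes with CG-rich (7572), intermediate (4621) and CG-poor (8529) promoters; thick lines are means of 2 hmTOP-seq (red) and 3 uTOP-seq (blue) libraries, thin lines single libraries. 5hmC drops to 0.251 and 0.240 just downstream of CG-rich starts, where uCG stays near 8, and both marks peak together at CG-poor starts.

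Along genes of at least 5 kb, the rates of the marks changed order between the start and the end. Each rate is scaled to its library total, so that the place where they cross depends on the scaling. A higher rate does not mean that more CGs carry that mark. In the last 500 bp upstream of the gene the mean rate was 2.53 ± 0.022 for 5hmC (SD, n = 2) and 11.6 ± 0.183 for uCG (SD, n = 3). In the first of 20 equal parts of the body it was 3.26 ± 0.019 against 9.19 ± 0.137. From the third part on, the 5hmC rate was the higher at this scaling: in the 11th it stood at 5.97 ± 0.017 against 4.99 ± 0.028. In the last part it reached 7.91 ± 0.074 against 5.55 ± 0.048. The rise of 5hmC toward the gene end exceeded the SD of its replicates many fold. At 5 kb downstream of the gene both scaled rates were level at 7.29 ± 0.039 and 7.29 ± 0.020. Leaving promoter windows out of the gene bodies lowered the calls to uCG from 4275 to 2559 and turned the median log2 ratio from -0.21 to 0.049, so that part of the lean of gene bodies to uCG lay in promoter windows.

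Short genes held more calls in both directions. In the shortest 20% (up to 6.64 kb) 444 of 3792 gene bodies shifted to 5hmC and 1562 to uCG, with a median log2 ratio of -0.63. In the longest 20% (from 63.8 kb) 56 of 3791 shifted to 5hmC and 325 to uCG, with a median of -0.09. Without promoter windows the medians of these groups were -0.11 and 0.02, and the shortest genes still had 468 and 925 calls.

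The 10 gene bodies with the largest shift to 5hmC had log2 ratios from 2.20 to 2.87. They came from 517 called for 5hmC that had non-overlapping libraries and met the minimum of CGs and reads. Cpne6 (chr14:55510445-55517431), a calcium-dependent lipid-binding protein of neurons, came first, at 28.1 and 29.3 for 5hmC and 4.11, 3.42 and 4.24 for uCG (log2 ratio 2.87, SE 0.10, adjusted p = 3.9e-36, edgeR). All leading gene bodies and promoters were chosen with libraries that do not overlap, so that their separation is not a finding. Slc39a2 (chr14:51892889-51896745), a zinc transporter, had 24.8 and 23.7 against 4.48, 4.33 and 4.37 (log2 ratio 2.46). The neighbors Myh6 (chr14:54941921-54966927) and Myh7 (chr14:54970684-54994626) encode the cardiac myosin heavy chains. Myh6 had 13.6 and 13.8 against 1.92, 2.78 and 3.17 (log2 ratio 2.41), and Myh7 had 11.4 and 11.6 against 2.23, 2.39 and 2.28 (log2 ratio 2.33). Their coding sequences are very similar, so that reads may be misplaced or left out for low mapping quality, and both lean the same way. Cebpe (chr14:54710360-54712174), a transcription factor of granulocytes, had the highest 5hmC level of the group with 34.9 and 32.8 against 6.79, 6.16 and 7.59 (log2 ratio 2.31).

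Of the other 5, Rgcc, a regulator of the cell cycle, had 14.3 and 13.4 against 2.95, 2.61 and 2.87 (log2 ratio 2.298). Samd11 (chr4:156246966-156255657) had 28.5 and 27.4 against 5.502, 5.998 and 5.86 (log2 ratio 2.28), and the kallikrein protease gene Klk15 (chr7:43933740-43939639) had 16.3 and 14.8 against 2.86, 3.82 and 3.07 (log2 ratio 2.26). Cbln3, a cerebellin that neurons secrete, had 20.96 and 21.6 against 5.57, 4.58 and 2.95 (log2 ratio 2.25), and its uCG replicate 3 lay below the others. Fam187a (chr11:102885169-102886731) had 22.03 and 22.3 against 4.83, 4.89 and 4.73 (log2 ratio 2.201). The groups do not overlap in these genes by that choice. Of the 10, none has a CG-rich promoter and 7 have a CG-poor one. Slc39a2, Myh7, Samd11 and Fam187a overlap another gene, and no library without BGT held more than 4 reads in any of the 10.

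Of these 10 gene bodies, 7 lie on chromosome 14 and 6 of them within chr14:51892889-55884392, a stretch of 3.99 Mb. In it 47 of 96 gene bodies tested (49.0%) shifted to 5hmC and 3 to uCG. The stretch is bounded by the outermost of the 6, so that its share counts genes chosen for this call. The uCG rate over all CGs of chromosome 14 was 3.08, 3.07 and 3.0, below that of every other autosome, and its 5hmC rate was 3.85 and 3.88. On the 17 autosomes other than 8 and 14 the mean uCG rate ran from 4.10 to 6.43 and the mean 5hmC rate from 3.71 to 6.999. Chromosome 8 was at 6.05 and 6.05 for 5hmC against 4.89, 4.91 and 4.93 for uCG. The controls without BGT were at 4.02 and 4.15 on chromosome 14 (381 and 365 reads) and at 5.95 and 6.45 on chromosome 8 (680 and 684 reads), closer to the 5hmC than to the uCG rates on both, and the part of this background in the shift was not tested. The log2 ratio over all CGs was 0.34 on chromosome 14 and 0.30 on chromosome 8, and between -0.14 and 0.12 on the others. On chromosomes 8 and 14 together, 250 of 1661 gene bodies (15.1%) shifted to 5hmC, against 648 of 17295 (3.75%) on the others, with 180 of 686 (26.2%) on chromosome 14 and 70 of 975 (7.18%) on chromosome 8, which is close to the 6.58% of chromosome 11. In promoters, 97 of 596 (16.3%) on chromosome 14 and 88 of 917 (9.60%) on chromosome 8 shifted to 5hmC, against 1179 of 15332 (7.69%) on the others, where chromosome 1 had 10.2%. With each library scaled to its reads per chromosome, an alternative chosen after seeing these values, 808 gene bodies shifted to 5hmC and 4228 to uCG. The log2 ratios of the 10 gene bodies above were then 2.53 for Cpne6, 2.12 for Slc39a2, 2.07 for Myh6, 1.98 for Myh7, 1.97 for Cebpe, 1.96 for Rgcc and 1.91 for Cbln3, and 2.20 for Samd11, 2.30 for Klk15 and 2.08 for Fam187a. What sets these chromosomes apart was not tested.

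**Figure D3:**
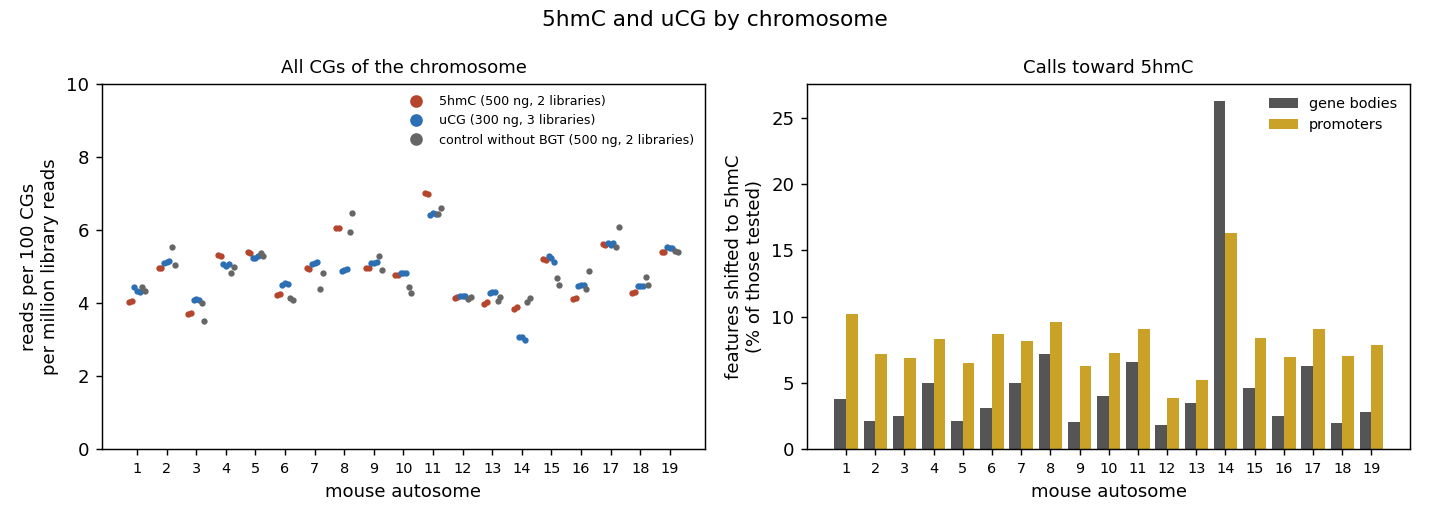
Left, reads per 100 CGs per 1000000 library reads (vertical) over all CGs of each autosome (horizontal), 1 point per library for 5hmC (red), uCG (blue) and the control without BGT (grey). Right, share of tested gene bodies (dark bars) and promoters (yellow bars) that shifted to 5hmC on each autosome; chromosome 14 stands at 26.2% of gene bodies and 16.3% of promoters, where its mean uCG rate is 3.05.

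Among 2170 gene bodies called for uCG under the same limits, the 10 with the largest shift had log2 ratios from -9.59 to -5.83. Of these 10, 9 have CG-rich promoters. Their lengths were 1324 to 4389 bp. Sox2 (chr3:34650405-34652461), a core pluripotency factor, came first with 1 and 0 5hmC reads against 453, 355 and 302 uCG reads (log2 ratio -9.59, adjusted p = 2.3e-34, edgeR). The 5hmC libraries were almost empty over this gene while all 3 uCG libraries were full. The immediate early gene Ier2 (chr8:84661331-84662852) had 4 and 2 against 702, 730 and 406 reads, and the AP-1 factor gene Jund (chr8:70698949-70700616) had 5 and 0 against 418, 324 and 263. Their log2 ratios were -8.03 and -7.41. Pcbp1, an RNA-binding protein gene, had 5 and 3 against 463, 358 and 338 reads (log2 ratio -6.98), and the splicing factor gene Srsf2 had 7 and 4 against 407, 422 and 381 (-6.61). The remaining genes were Mcl1 (cell survival, -6.18), Timm13 (mitochondrial import, -5.95), Pcna (the sliding clamp of DNA replication, -5.86), Rpl10a (a ribosomal protein, -5.85) and Utf1 (a chromatin factor of stem cells, -5.83). In all 10, every uCG library was above every 5hmC library, as the choice required. Ratios from so few 5hmC reads are imprecise. The SE between libraries was 0.13 for Timm13 with 11 and 9 reads, and 1.76 for Rpl10a with 17 and 1. A small SE here can come from libraries that happen to agree, and it can lie below counting error.

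Of the promoters called for 5hmC, 786 had non-overlapping libraries and met the minimum. The 10 with the largest shift among them had log2 ratios from 2.61 to 3.58. The first was Siah3 (chr14:75454982-75456482), whose upstream stretch is printed above, with 23.4 and 26.8 against 1.304, 2.73 and 2.39 (log2 ratio 3.58, SE 0.34, adjusted p = 6.1e-20, edgeR). Over this window both 5hmC libraries were high and all uCG libraries low. Col6a5 (chr9:105960143-105961643), a chain of collagen VI, had 21.8 and 18.4 against 2.04, 1.82 and 1.92 (log2 ratio 3.37), and Cpne6 (chr14:55509448-55510948), first among the gene bodies, had 26.6 and 27.6 against 4.05, 2.49 and 2.73 (log2 ratio 3.098). The window of Casq1 (chr1:172219368-172220868), which binds calcium in skeletal muscle, had 23.4 and 22.7 against 4.09, 2.94 and 2.57 (log2 ratio 2.82). Pnoc, the precursor of the neuropeptide nociceptin, had 23.5 and 22.7 against 2.898, 4.21 and 3.95 (log2 ratio 2.66), and the serotonin receptor gene Htr2a had 20.6 and 23.1 against 2.58, 4.62 and 3.64 (log2 ratio 2.61). The others were the olfactory receptor gene Olfr212 (3.52), Wfdc12 (2.67) and the predicted genes Gm5678 (2.67) and Gm37388 (2.65). Of the 10, 8 have CG-poor promoters, 4 lie on chromosome 14, and none had a read in the controls.

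The 10 promoters with the largest shift to uCG came from 11282 called for uCG that had non-overlapping libraries and met the minimum. These 10 had no 5hmC read in either library, and all 10 are CG-rich. A limit of 3 reads over both hmTOP-seq libraries, scaled to library totals, bounds their ratios and covers counting error only. The mitochondrial ribosomal protein gene Mrpl40 (chr16:18876362-18877862) had 653, 573 and 435 uCG reads, so that 5hmC was at least 497-fold lower. The heterochromatin protein gene Cbx5 (chr15:103239316-103240816) and the RNA-binding protein gene Hnrnpa1 (chr15:103239432-103240932) stand head to head and share most of their windows, with 557, 409 and 349 and 553, 418 and 346 uCG reads, and 5hmC was at least 391-fold and 392-fold lower. Rbmxl1 and Slc10a7 share a window on chromosome 8 in the same way and had 5hmC at least 397-fold and 392-fold lower. The Mediator subunit gene Med22 followed at least 357-fold lower, then Ubr7 at least 356-fold, the histone demethylase gene Kdm3a at least 349-fold, Pcbp1 at least 348-fold and the histone acetyltransferase gene Kat7 at least 345-fold lower. These bounds hold for the 500-ng libraries at library totals. The rescaling that moved the promoter median up by 2.34 with TMM and 2.51 with DESeq2, in log2 units, would lower them. At 50 ng, Kat7 had 3 and 6 5hmC reads (log2 ratio -6.29), Rbmxl1, Hnrnpa1, Slc10a7 and Pcbp1 had 2 in 1 library (-8.54 to -8.35), and the others had none. Of these windows, 7 overlap that of another gene, so that the 10 are not independent. No 5hmC read was found in 129 promoters and 23 gene bodies called for uCG.

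Promoter and body of a gene were both tested in 16736 genes. In 421 genes both shifted to 5hmC and in 2931 both to uCG, and 8648 had a promoter shifted to uCG and a body without a call. In 110 genes the promoter shifted to uCG and the body to 5hmC. In 29 genes the opposite held. Among these 29, chosen after their values were seen, Klf1, a transcription factor of red blood cells, had log2 ratios of 2.73 in the promoter and -1.98 in the body, Ogn, a small proteoglycan, 2.29 and -1.87, Sstr1, a somatostatin receptor, 1.52 and -2.22, and Oaz3, an antizyme of sperm cells, 1.22 and -2.72. Their promoter windows had 12 to 32 CGs. The overlap of windows with bodies ties both measures.

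Of 28 pluripotency factors, 27 promoters were tested and 21 shifted to uCG (77.8%, against 69.5% of all promoters tested) and 0 to 5hmC (against 8.1%). With TMM and with DESeq2, 6 of them shifted to 5hmC. The median log2 ratio was -3.70 against -2.68 over all promoters. Of 28 bodies 13 shifted to uCG (46.4%, against 22.6% of all gene bodies tested) and 0 to 5hmC (against 4.74%), with a median of -0.86 against -0.21. These shares and medians over all features are the background for each list below, and no list was tested against it. The background differs by CG class, as do the lists. Of CG-poor promoters 25.7% shifted to 5hmC and 17.2% to uCG. Of CG-rich promoters 0.119% shifted to 5hmC and 96.6% to uCG. The promoters of the core factors Pou5f1, Nanog and Sox2 are shown by the stretches upstream of their start sites, with CGs in capitals (RefSeq, GRCm38.p6, all plus strand): chr17:35505782-35506017 for Pou5f1, chr6:122707239-122707488 for Nanog and chr3:34649745-34649994 for Sox2.
Pou5f1: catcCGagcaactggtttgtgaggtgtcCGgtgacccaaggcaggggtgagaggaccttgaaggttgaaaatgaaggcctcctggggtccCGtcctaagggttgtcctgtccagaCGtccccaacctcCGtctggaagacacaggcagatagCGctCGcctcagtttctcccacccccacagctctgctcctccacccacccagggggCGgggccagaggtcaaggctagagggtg
Nanog: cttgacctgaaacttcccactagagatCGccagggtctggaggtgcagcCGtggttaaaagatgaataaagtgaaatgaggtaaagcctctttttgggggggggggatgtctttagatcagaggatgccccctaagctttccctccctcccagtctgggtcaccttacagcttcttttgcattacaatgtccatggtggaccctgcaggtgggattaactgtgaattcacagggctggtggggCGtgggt
Sox2: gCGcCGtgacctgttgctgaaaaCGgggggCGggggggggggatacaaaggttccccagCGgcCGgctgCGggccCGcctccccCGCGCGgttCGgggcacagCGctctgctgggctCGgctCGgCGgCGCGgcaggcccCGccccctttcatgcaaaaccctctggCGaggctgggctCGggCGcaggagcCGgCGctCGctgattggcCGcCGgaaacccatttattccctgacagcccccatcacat
The stretch of Pou5f1 has 8 CGs, which held 0 and 2 5hmC reads against 48, 58 and 54 uCG reads, and every CG had a uCG read. Nanog has only 3 CGs there, with 1 and 1 5hmC reads against 18, 28 and 29 uCG reads. The 27 CGs of Sox2 held no 5hmC read against 62, 57 and 28 uCG reads, and 18 of the 27 had a uCG read. The 3 stretches differ widely in CG number, and none held more than 2 5hmC reads in a library. On the 3 CGs of Nanog such counts do not show that 5hmC was near-absent. The median 5hmC rate over CG-rich promoters, the class of Sox2, was 0.529.

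Over the whole promoter window, Pou5f1 (Oct4) had 0.814 and 0.184 for 5hmC against 25.1, 27.5 and 32.9 for uCG (log2 ratio -5.78, adjusted p = 1.7e-26, edgeR), and its body had 1.54 and 1.3998 against 19.02, 17.5 and 18.98 (-3.65). Nanog had 3.67 and 2.41 against 19.2, 22.8 and 25.997 in the promoter (log2 ratio -2.88) and 5.71 and 5.29 against 11.9, 11.6 and 14.9 in the body (-1.21). Both 5hmC rates of the Nanog promoter lay above the median of 1.70 over all promoters tested. The assays did not overlap in promoter or body of either gene, which is common. Every uCG library was above every 5hmC library in 12760 of 16845 promoters and 9974 of 18956 gene bodies tested. The ratio was closer to 0 in the body for both genes. Sox2 had 0.115 and 0.0234 against 9.51, 10.4 and 9.49 in the promoter (log2 ratio -7.07) and, with its single exon, an even stronger lean in the body. Klf4, a reprogramming factor, had 0.0611 and 0.124 against 3.799, 4.05 and 4.05 in the promoter (-5.37) and 2.696 and 3.09 against 12.2, 11.7 and 12.4 in the body (-2.06). Tdgf1, a co-receptor of Nodal, had 0.131 and 0.19998 against 17.3, 20.8 and 17.4 in the promoter (-6.73). The promoter of Socs3, which dampens LIF signaling, had 0 and 0.196 against 16.8, 13.9 and 14.3. Its log2 ratio of -7.22 is imprecise (SE 1.97) and was -5.03 with the 50-ng libraries.

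The 6 promoters of the list without a call were those of Lefty2, Lifr, Dppa3, Lefty1, Esrrb and Prdm14. Lefty2, an inhibitor of Nodal, had the highest 5hmC level of the list with 27.9 and 30.4 against 13.5, 18.7 and 11.9, and its log2 ratio of 0.98 lay just under the 2-fold limit (adjusted p = 8.3e-08, edgeR). Its neighbor Lefty1 had 19.998 and 18.7 against 17.8, 17.9 and 20.4, which overlap (0.05, and -0.57 with the 50-ng libraries). Esrrb had 8.93 and 7.58 against 13.7, 13.8 and 11.8 (-0.67) and Prdm14 11.5 and 9.68 against 19.2, 16.4 and 15.7 (-0.701). In these 4 promoters every library was above a rate of 7 for both marks. The negative ratios of Esrrb, Prdm14, Dppa2 (-1.91) and Zfp42 (-2.32) turned positive with TMM normalization (1.68, 1.64, 0.43 and 0.024) and with DESeq2 (1.84, 1.81, 0.59 and 0.19). Among bodies, Stat3, the transcription factor below LIF, had 10.2 and 10.4 against 6.83, 6.95 and 7.31 (0.55), its receptor Lifr 8.81 and 9.05 against 7.56, 7.57 and 7.44 (0.25) and Esrrb 12.4 and 12.5 against 11.2, 11.2 and 11.3 (0.15), all without a call. In these 3 genes every 5hmC library was above every uCG library, as in 6291 of the 18956 gene bodies tested. The controls held 9 and 8 reads over the bodies of all 28 genes.

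**Figure D4:**
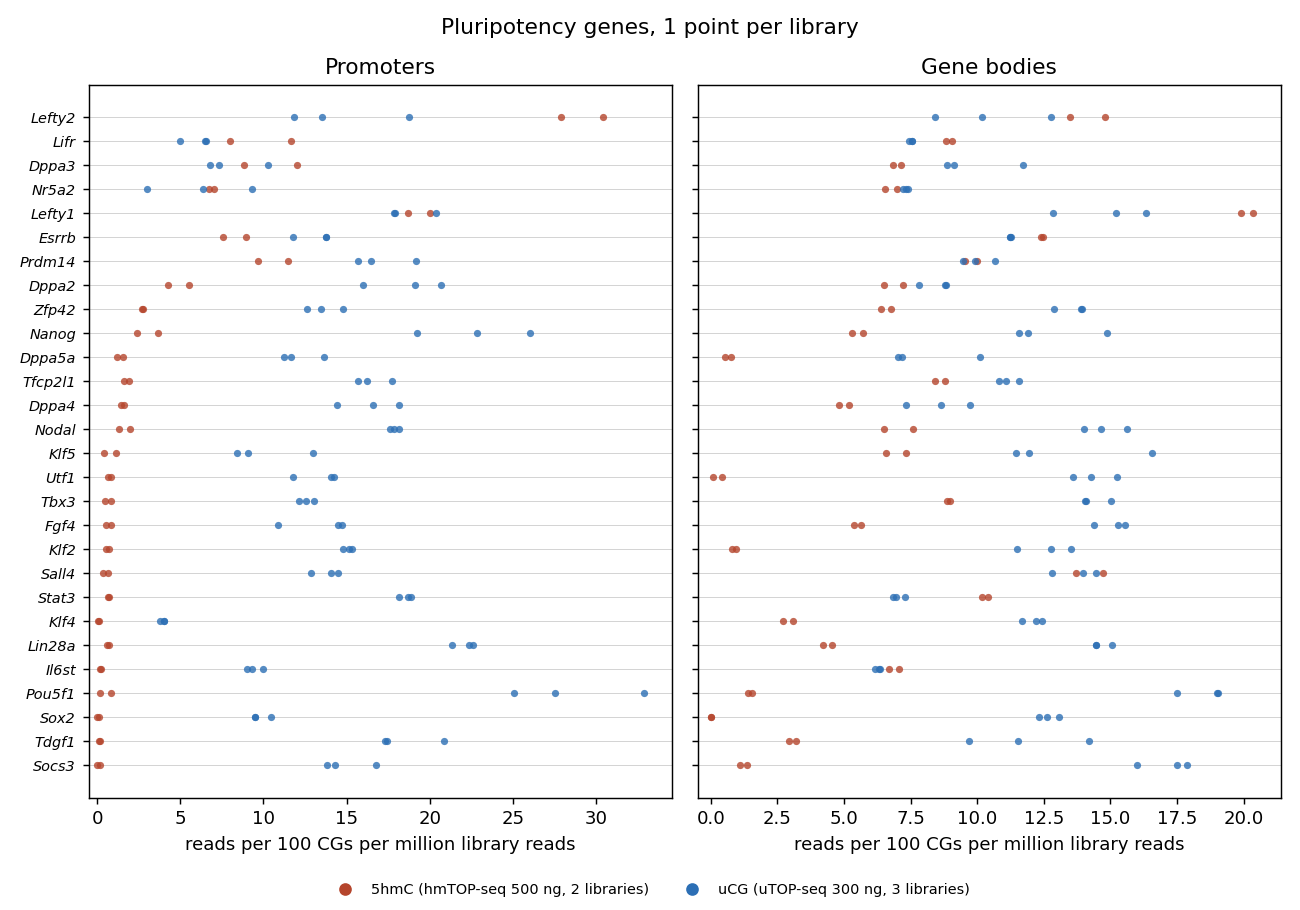
Rate in each library (horizontal, reads per 100 CGs per 1000000 library reads) for the promoters (left) and gene bodies (right) of 28 pluripotency genes (vertical), with 2 hmTOP-seq libraries in red and 3 uTOP-seq libraries in blue. Most promoters have red points near 0 and blue points well to the right, and the order is reversed at the Lefty2 promoter (27.9 and 30.4 for 5hmC against 13.5, 18.7 and 11.9) and the Stat3 body.

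The enzymes that write, oxidize and remove DNA methylation were near the background in their calls. Of 23 promoters 17 shifted to uCG (73.9% against 69.5%) and 0 to 5hmC (median log2 ratio -3.28 against -2.68), and of 23 bodies 6 shifted to uCG (26.1% against 22.6%) and 1 to 5hmC (median -0.06, which turned to 0.13 with TMM and 0.15 with DESeq2, against -0.21). The TET dioxygenases, which make 5hmC, differed among themselves. The Tet2 promoter had 0.162 and 0.165 against 8.203, 6.94 and 7.32 (log2 ratio -5.49) and the Tet3 promoter 0.541 and 0.323 against 6.14, 5.46 and 5.12 (-3.69), whereas the promoter of Tet1 had 7.08 and 7.68 against 8.799, 12.8 and 10.7 (-0.53, no call, adjusted p = 0.078, edgeR), a ratio that became 1.81 with TMM, 1.98 with DESeq2 and 0.39 with the start at the gene end. In the bodies, Tet3 had 10.2 and 9.76 against 6.19, 5.99 and 6.21 (0.702), Tet1 10.6 and 10.7 against 11.2, 11.7 and 11.7 (-0.12, but 0.062 with TMM and 0.082 with DESeq2) and Tet2 5.64 and 5.66 against 8.81, 8.49 and 8.48 (-0.61). Tet3 thus leaned to 5hmC and Tet2 to uCG, each without reaching 2-fold. For Tet3 the promoter ratio rests on the chosen start site, since the start at the gene end gave 0.053.

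Among the methyltransferases, the promoter of the maintenance enzyme Dnmt1 had 1.01 and 1.24 against 20.4, 20.8 and 19.4 (log2 ratio -4.16), and 1.37 when the start at the gene end was used instead. Its body had 12.2 and 12.6 against 9.402, 9.11 and 8.92 (0.44). The de novo enzyme gene Dnmt3a had 0.327 and 0.533 against 2.86, 2.47 and 3.41 in the promoter (-2.75) and 11.5 and 11.4 against 7.37, 7.51 and 7.67 in the body (0.61). Dnmt3b had 2.99 and 2.68 against 6.37, 5.93 and 7.88 in the promoter (-1.24, but 1.11 with TMM and 1.27 with DESeq2). The promoter of Dnmt3l, a cofactor of the de novo enzymes, leaned the other way with 24.1 and 22.98 against 12.6, 11.2 and 13.05 (0.94, no call). Uhrf1, which guides Dnmt1 to replicating DNA, had both marks in the promoter, 10.9 and 8.72 against 20.03, 22.6 and 18.3 (-1.05, but 1.29 with TMM and 1.46 with DESeq2). In the repair branch, the promoter of Tdg, the glycosylase that removes oxidized cytosines, had 0.154 and 0.282 against 11.3, 8.93 and 8.95 (-5.46). Neil2, a glycosylase on chromosome 14, was the only body called for 5hmC, with 10.97 and 9.58 against 4.63, 3.91 and 4.54 (1.23), and with totals per chromosome it lost the call (0.89). The stress genes Gadd45a and Gadd45g were at the other end with body ratios of -5.57 and -3.35.

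Lineage regulators of the embryo are held silent or poised in mESCs. Of 38 promoters tested 32 shifted to uCG (84.2%, against 69.5% of all promoters) and 0 to 5hmC. Their median log2 ratio of -2.20 was closer to 0 than the -2.68 of all promoters, and it turned to 0.15 with TMM and 0.31 with DESeq2. Of these promoters 26 are CG-rich and 0 are CG-poor. The share of 84.2% lies between the 96.6% of CG-rich and the 79.5% of intermediate promoters that shifted to uCG. Of 39 bodies 12 shifted to uCG (30.8% against 22.6%) and 1 to 5hmC (median -0.39 against -0.21). The body called for 5hmC was that of Gata4, a factor of endoderm and heart on chromosome 14, with 11.3 and 10.9 against 4.14, 4.24 and 3.88 (1.44, adjusted p = 2.0e-37, edgeR, and 1.10 with totals per chromosome). The heart factor gene Tbx5 came next with 14.3 and 13.8 against 7.34, 7.903 and 7.24 (0.905, no call). The neural factor gene Neurog2 was at the uCG end of the bodies, with 0.746 and 0.778 against 11.2, 12.1 and 11.99 (-3.94), and its promoter (-4.303) was among the lowest of the list. Among promoters, Hand1 was highest with 26.1 and 24.5 against 14.8, 16.3 and 17.9 (0.64), both marks being high there.

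Hox genes set position along the body axis and lie in clusters. Of 39 promoters 20 shifted to uCG (51.3%, against 69.5% of all promoters) and 2 to 5hmC (5.13% against 8.1%), with a median log2 ratio of -1.34, which turned to 1.004 with TMM and 1.18 with DESeq2. Of 39 bodies 10 shifted to uCG (25.6% against 22.6%) and 1 to 5hmC (median -0.51). The promoters called for 5hmC were Hoxb3, with 14.5 and 16.9 against 3.87, 3.8997 and 3.98 (1.997), and Hoxd4, with 29.7 and 24.4 against 6.26, 7.94 and 8.56 (1.85). For Hoxd4 the start at the gene end gave -2.26. The lowest promoters were Hoxd11, with 0.256 and 0.285 against 7.71, 6.696 and 7.53 (-4.74), and Hoxc5, with 2.404 and 2.25 against 21.4, 18.6 and 15.8. The body of Hoxb13 had the highest 5hmC level of the family, 36.3 and 36.3 against 15.2, 16.8 and 16.5 (1.17), and both of its marks were high. Of 39 Hox bodies, 18 stood in the top 20% of both marks, against 8.85% of all gene bodies tested.

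Promoters of many germline genes are known to be methylated outside the germline. Of 34 germline promoters tested 13 shifted to 5hmC (38.2%, against 8.1% of all promoters) and 6 to uCG (17.6% against 69.5%), with a median log2 ratio of 0.64. Of 35 bodies 2 shifted to 5hmC (5.71% against 4.74%) and 0 to uCG (median 0.28). Dazl, an RNA-binding protein of germ cells, had 16.6 and 16.7 against 4.82, 3.66 and 5.68 over 84 CGs (1.82, SE 0.18, adjusted p = 2.9e-18, edgeR), and Tdrd9, a helicase of the piRNA pathway, had 26.9 and 22.5 against 5.73, 4.704 and 9.798 (1.900). The groups are wide apart in both. Boll, a relative of Dazl, differed with 0.658 and 1.12 against 6.93, 6.19 and 5.08 over 131 CGs (-2.77). The bodies called were Piwil2, a piRNA-binding protein on chromosome 14 (1.51, and 1.17 with totals per chromosome), and Tex101 (1.19).

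Imprinted genes carry methylation on 1 parental copy of their control regions. Of 35 promoters tested 25 shifted to uCG (71.4%, near the 69.5% of all promoters) and 1 to 5hmC (median log2 ratio -2.13, which turned to 0.21 with TMM and 0.37 with DESeq2). Of 38 bodies 12 shifted to uCG (31.6% against 22.6%) and 1 to 5hmC (median -0.39). The promoter of Ube3a, a ubiquitin ligase, had 0 and 0.0296 against 10.1, 9.44 and 8.39 (-8.94), and that of Usp29 had 0.716 and 0.558 against 10.6, 9.85 and 14.4 (-4.17). The body of Rtl1, a retrotransposon-derived gene of the placenta, had 8.76 and 8.47 against 2.57, 2.47 and 2.36 (1.8). The bodies of the intronless genes Mcts2 and Mkrn3 were at -5.56 and -4.38. Mcts2 is imprecise, with 5hmC rates of 0.615 and 0 (SE 2.03), and ran from -10.3 to -4.60 without 1 library at a time. The reads were not split by parental copy.

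Most promoters of genes used by every cell were low in 5hmC. The median 5hmC rate was 0.342 in the ribosomal list and 0.516 in the replication and glycolysis list, against 0.529 over CG-rich promoters. Exceptions among these promoters were Rps14 with 8.70 and 7.41, Rpl17 with 3.79 and 6.51 and Tpi1 with 8.79 and 7.24. Of 75 promoters of cytosolic ribosomal proteins 73 shifted to uCG (97.3%, against 69.5% of all promoters) and 0 to 5hmC (median log2 ratio -5.31). Of these promoters 60 are CG-rich, a class in which 96.6% shifted to uCG. Of 75 bodies 72 shifted to uCG (96.0% against 22.6%, median -3.51). Rpl4 and Rps23 had no 5hmC read in their promoters, at least 190-fold and 171-fold lower than uCG at 12.8, 14.7 and 11.5 and 14.9, 17.4 and 14.4. The bodies of Rps12 (-9.25) and Rps21 (-8.81) were lowest. Of 39 promoters of replication and glycolysis genes 39 shifted to uCG (median -4.85), and 10 of 39 bodies did (25.6%, near the 22.6% of all gene bodies), while 1 shifted to 5hmC (median -0.33). Orc4, of the origin recognition complex, had 0 and 0.0505 against 10.8, 10.5 and 9.46 in the promoter (-8.31). The body of Pold1, the catalytic subunit of DNA polymerase delta, leaned to 5hmC with 25.02 and 24.1 against 12.2, 11.8 and 12.3 (1.02), and that of Gapdh to uCG with 1.24 and 1.22 against 17.8, 18.3 and 19.1 (-3.89). Ribosomal protein genes are short, and where their processed pseudogenes are near-identical, reads could be misplaced or left out for low mapping quality.

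**Figure D5:**
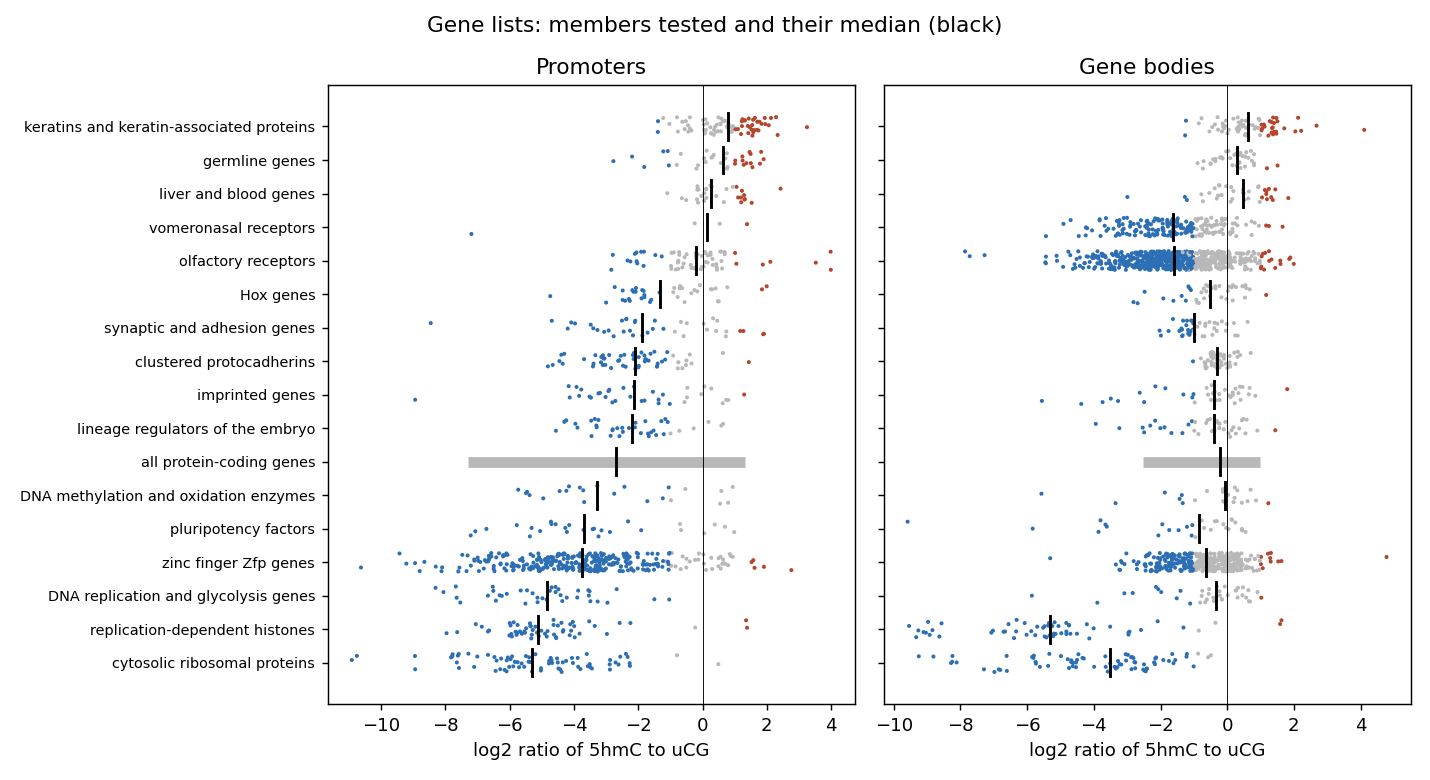
Log2 ratio of 5hmC to uCG (horizontal) for each tested member of 16 gene lists (rows), in promoters (left) and gene bodies (right), with red for shifted to 5hmC, blue for shifted to uCG, grey for no call and black for the median; the grey bar spans the 5th to 95th percentile of all protein-coding genes. Promoter medians run from -5.31 in cytosolic ribosomal proteins to 0.79 in keratins.

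Replication-dependent histone genes form short, CG-dense clusters. Of 58 promoters tested 55 shifted to uCG (94.8% against 69.5%) and 2 to 5hmC (median log2 ratio -5.12), and of 59 bodies 55 shifted to uCG (93.2% against 22.6%) and 2 to 5hmC (median -5.33). The 2 exceptions in both sets were the testis variants Hist1h2ba and Hist1h2aa, whose promoters had 26.5 and 25.4 against 10.3, 10.03 and 9.44 (1.39) and 26.9 and 25.3 against 10.99, 9.85 and 9.5997 (1.36). The promoter of Hist1h4a had 0.0496 and 0 against 7.52, 7.34 and 6.65 (-7.97). The bodies of Hist2h2ac and Hist1h2ae had no 5hmC read, at least 73.2-fold and 62.2-fold lower than uCG, but Hist1h2ae had 0 and 5 reads at 50 ng (log2 ratio -4.65). Histone copies are near-identical in places, so that values of single genes are uncertain.

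Keratins and keratin-associated proteins, which build skin and hair, stood opposite to the histones. Of 78 promoters tested 31 shifted to 5hmC (39.7% against 8.1%) and 2 to uCG (median log2 ratio 0.79). Of 74 bodies 28 shifted to 5hmC (37.8% against 4.74%) and 2 to uCG (median 0.63). Of the 78 promoters 68 are CG-poor, a class in which 25.7% shifted to 5hmC. Krtap4-2 had 13.1 and 12.3 against 0.587, 1.08 and 0.414 in its body (4.11) and 13.98 and 13.1 against 2.24, 0.394 and 1.36 in its promoter (3.25), over 12 and 11 CGs. Krtap13 had 4.61 and 5.82 against 0.754, 0.619 and 1.78 in the promoter (2.34). Krt10, a keratin of the upper skin, was among the 2 bodies called for uCG, with 2.74 and 3.72 against 8.08, 7.05 and 8.09 (-1.26). The hair genes are close copies with few CGs, and 78 of 110 promoters were tested.

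Liver and blood genes also leaned to 5hmC. Of 30 promoters tested 10 shifted to 5hmC (33.3% against 8.1%) and 0 to uCG (median log2 ratio 0.27). Of 36 bodies 10 shifted to 5hmC (27.8% against 4.74%) and 3 to uCG (median 0.47). With totals per chromosome 10 of 36 bodies shifted to 5hmC (median 0.42). With chromosomes 8 and 14 left out 7 of 33 did (median 0.18). All 30 promoters are CG-poor, a class with 25.7% of calls to 5hmC and a median of 0.31, so that their lean is near that of the class. All 36 bodies belong to genes with CG-poor promoters, of whose bodies 9.85% shifted to 5hmC. The promoter of Fgg, the gamma chain of fibrinogen, had 30.5 and 28.98 against 3.81, 7.94 and 4.97 (2.43). Apoa2, an apolipoprotein of high-density lipoprotein, had 16.4 and 15.2 against 6.34, 4.62 and 5.301 in its promoter (1.53) and 16.2 and 14.2 against 4.82, 4.105 and 3.66 in its body (1.83). Cd79a, of the B cell receptor, had 29.4 and 23.8 against 10.9, 9.57 and 8.605 in the body (1.44). The body of Cyp3a11, a drug-metabolizing enzyme of liver, went the other way with 0.603 and 0.388 against 3.85, 3.98 and 4.15 (-2.99), as did Cd14, a receptor of monocytes (-1.27).

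Chemosensory receptors had low rates of both marks. Of 1086 olfactory receptor bodies 640 were tested, and 388 of the 640 lay in the bottom 20% of both rates. Of the 640, 426 shifted to uCG (66.6%, against 22.6% of all gene bodies) and 15 to 5hmC (median log2 ratio -1.59). The filter sums reads of both assays, so that a body could pass through its uCG reads alone. Over all 1086 bodies, tested or not, the pooled rates were 1.91 and 1.98 for 5hmC against 3.26, 3.25 and 3.26 for uCG. Of 326 vomeronasal receptor bodies 194 were tested, of which 132 shifted to uCG (68.0%) and 3 to 5hmC (median -1.64). Of the 194, 143 lay in the bottom 20% of both. Over all 326 bodies the pooled rates were 0.989 and 1.01 for 5hmC against 2.04, 2.11 and 2.05 for uCG. The controls without BGT were low there too, with 2.86 and 3.08 over the olfactory bodies (10 and 10 reads). Over the vomeronasal bodies they were 0.861 and 0.927 (2 and 2 reads), against 5.75 and 5.56 over all gene bodies. Of 1086 olfactory receptor promoters 64 were tested, with 13 calls to uCG and 7 to 5hmC (median -0.21, which turned to 2.12 with TMM and 2.30 with DESeq2), and of 326 vomeronasal promoters only 4 were tested. Olfr750 and Olfr1512, both on chromosome 14, had the highest body ratios, 1.997 and 1.89 (1.65 and 1.55 with totals per chromosome). Vmn1r21 was lowest among the vomeronasal bodies with 0 and 0.1205 against 4.602, 2.83 and 2.29 (-5.44). The promoters of Olfr1513 and Olfr736 had 6.96 and 7.91 against 0, 0.912 and 0.523 and 5.38 and 6.79 against 0.587, 0 and 0.414. Many receptor genes are near-identical copies, in which reads could be left out for low mapping quality, and single values are uncertain. The part of this in the low rates was not tested.

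Synaptic and adhesion genes are among the longest of the genome. Of 42 bodies 21 shifted to uCG (50.0%, against 22.6% of all gene bodies) and 0 to 5hmC (median log2 ratio -1.01), and 29 lay in the bottom 20% of both rates. The body of Nrg3, a neuregulin, had 0.645 and 0.679 against 2.63, 2.73 and 2.73 over 4905 CGs (-2.03), and that of the contactin Cntn6 0.596 and 0.597 against 2.25, 2.39 and 2.47 (-1.99). Both differences far exceed the replicate spread at low levels of either mark. Of 39 promoters tested 24 shifted to uCG (61.5% against 69.5%) and 4 to 5hmC (10.3% against 8.1%), both near the background (median -1.87, which turned to 0.47 with TMM and 0.64 with DESeq2). Nlgn2, a neuroligin, had 0 and 0.0704 against 15.7, 15.3 and 10.9 in the promoter (-8.46), and 13.3 and 13.7 against 8.66, 9.39 and 8.46 in the body (0.61, no call). Auts2 and Rbfox1 had promoters called for 5hmC (1.89 and 1.91), but at the start of the gene end the ratios were -5.08 and -0.44.

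Clustered protocadherins, which give neurons their surface identity, differed between start and body. Of 56 promoters tested 46 shifted to uCG (82.1% against 69.5%) and 1 to 5hmC (median log2 ratio -2.11, which turned to 0.23 with TMM and 0.40 with DESeq2), but of 57 bodies 1 shifted to uCG (1.75% against 22.6%) and 0 to 5hmC (median -0.32). The promoter of Pcdha8 had 6.904 and 6.42 against 2.58, 2.22 and 2.55 (1.44), whereas its neighbor Pcdha5 had 0.237 and 0.402 against 8.75, 10.9 and 8.16 (-4.81). Bodies of the alpha and gamma clusters share their last exons and overlap, so that they are not separate measurements.

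Of 331 promoters of Zfp zinc finger genes 297 shifted to uCG (89.7% against 69.5%) and 5 to 5hmC (median log2 ratio -3.74), and of 342 bodies 126 shifted to uCG (36.8% against 22.6%) and 10 to 5hmC (median -0.64). Zfp982 was at the 5hmC end of the promoters with 20.8 and 16.1 against 3.2996, 2.71 and 1.86 (2.76), and Zfp961 and Zfp942 had no 5hmC read, at least 158-fold and 68.0-fold lower than uCG. The body of Zfp957 had 6.699 and 6.896 against 2.45, 1.79 and 2.34 (1.63), and that of Zfp830 0.424 and 0.324 against 15.7, 15.6 and 14.1 (-5.31). The body of Zfp986 had the highest ratio (4.78) on 16 and 41 5hmC reads against 2, 0 and 0 uCG reads, in a cluster of near-identical copies, and is uncertain.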

How the data were processed

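The authors prepared hmTOP-seq and uTOP-seq libraries of E14TG2a mESC DNA, sequenced them on Ion Proton, mapped reads to mm10 and deposited read counts per CG without normalization. For hmTOP-seq, reads needed a minimal mapping quality, and reads with the same start position and length were counted once. For uTOP-seq the paper refers to an earlier description. hmTOP-seq counts merge both strands of a CG, and uTOP-seq counts, deposited by strand, were summed per CG. Counts were summed per gene body and per promoter (1 kb upstream to 0.5 kb downstream of the start of the transcript with the longest coding sequence) of autosomal protein-coding genes (GENCODE M21). Features with at least 10 CGs and 50 reads over the 5 libraries were tested with edgeR 4.0.16 in R 4.3.3 (glmQLFit and glmQLFTest), with library totals as library sizes and Benjamini-Hochberg adjustment. The procedure recovered 99% of gene bodies and 97.5% of promoters changed 4-fold in simulated counts of 18956 and 16845 features. In each simulation 200 features changed, evenly in both directions and at the fitted dispersion, so that it does not probe the scaling. DESeq2 1.42.0 was an alternative. Shares were compared by an exact permutation test over libraries. Tables and figures were made with Python 3.11.15.

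Genes named as leading were the 10 largest log2 ratios in each direction among called features whose libraries did not overlap, with at least 50 CGs and a mean of 200 reads for gene bodies, or 20 CGs and 50 reads for promoters. From each of 16 gene lists the 2 highest and 2 lowest tested members could be named, and any member of the enzyme and pluripotency lists. Some genes that this rule selects are not reported here. The genes and lists were chosen with earlier results of these data known. Depth was 20120568 to 32502791 reads per library, and its counting error is a lower limit, since duplicates were removed without molecular identifiers. Libraries at 5 ng and the controls at 5 and 50 ng were not used here. The aligner and its version are not given in the sources used here.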

Additional observations from a re-analysis of the deposited data

How the results depend on the processing

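Calls to 5hmC in gene bodies were 898 and moved to 1396 with TMM normalization and 1488 with DESeq2, and calls to uCG moved from 4275 to 2559 without promoter windows, where the body median turned to 0.049. Calls to 5hmC in promoters were 1364 and moved to 5686 with TMM, 5989 with DESeq2 and 802 in a window of 250 bp around the start, and calls to uCG moved from 11710 to 6936 with TMM and 6537 with DESeq2. TMM and DESeq2 put 578 and 885 promoters called for uCG on the side of 5hmC. These 4 counts stayed within 1.5 times without the read filter, with repeats left out, reads capped at 20 per CG and hmTOP-seq at 50 ng, and, chosen after seeing the data, with totals per chromosome and chromosomes 8 and 14 left out. The same held for CGs of 1 gene only, run for gene bodies, and for the start at the gene end, run for promoters, where 184 promoters were called on the opposite side. Without 1 library at a time, gene bodies gave 861 to 926 calls to 5hmC and 4133 to 4313 to uCG, promoters 1273 to 1383 and 11647 to 11698, and the difference in shares was 1.96 to 2.22 percentage points for gene bodies and -8.34 to -8.16 for promoters. Replicate numbers shared by the assays do not pair the libraries (correlation of deviations from -0.006 to 0.003), and a fit with the replicate number as a block gave 922 and 4272 calls in gene bodies and 1377 and 11695 in promoters. Among 208 named features and 3245 values, 3109 kept direction and call, 49 lost the call, 40 gained it and 47 changed sign, by any amount, in 23 features. Of the 47, 26 in 11 features had no call under either setting. The promoter ratios that changed sign with TMM and DESeq2 were 1.64 and 1.81 for Prdm14, 0.024 and 0.19 for Zfp42, 1.68 and 1.84 for Esrrb, 0.43 and 0.59 for Dppa2, 1.11 and 1.27 for Dnmt3b, 1.81 and 1.98 for Tet1 and 1.29 and 1.46 for Uhrf1. With the start at the gene end they were -2.26 for Hoxd4, -5.08 for Auts2, -0.44 for Rbfox1, 1.98 for Esrrb, 0.053 for Tet3 and 1.37 for Dnmt1, and in the narrow window -5.28 for Zbtb4. Those without a call changed sign with TMM and DESeq2 to 0.15 and 0.17 for the body of Prdm14, 0.069 and 0.089 for Nr5a2, 0.054 and 0.075 for Dnmt3b, 0.062 and 0.082 for Tet1, 0.052 and 0.072 for Dnmt3l and 0.15 and 0.17 for Uhrf1. Without promoter windows they were 0.11 for Prdm14, 0.0014 for Dnmt3b and 0.23 for Uhrf1, with the replicate block 0.013 and with totals per chromosome 0.080 for Prdm14. Sall4 was at -0.16 with capped reads and -0.14 at 50 ng, and the Lefty1 promoter at -0.57 at 50 ng. With the start at the gene end, the promoters of Otx2 and Tet1 were at -0.58 and 0.39. Without 1 library at a time, the bodies of Prdm14, Sall4 and Mbd2 ran from -0.0704 to 0.0115, -0.0069 to 0.095 and -0.0037 to 0.052. Why these values moved was not tested. Depth limits promoters with no 5hmC read, where only a lower bound of the fold at library totals is known.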
